A study of Rattus norvegicus with 30 samples.

Results

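Class II major histocompatibility complex (MHC) molecules present peptides to CD4+ T cells, and 8 rat genes of this route were followed gene by gene and rat by rat in the brain. These were Cd74, RT1-Da, RT1-Db1, RT1-Ba, RT1-Bb, RT1-DMa, RT1-DMb and Ciita. All 8 were found by symbol among the 17134 genes of the table. The genes were listed by function, but the list was in part chosen by measured levels, since it was proposed after an earlier look at these data, in which the mean of a class II list stood apart in HIP rat 10RT48 and Cd74, RT1-Da and RT1-Db1 had been named from their values. The levels of that rat are therefore a description with no test, and the fits of the 8 genes in HIP rats are given with and without it. AKO vs. WT rats, a comparison without that rat, carries the tests below, although results of these data were known when it was chosen.

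RNA was sequenced from 30 male Sprague Dawley rats on a normal diet, 10 per group. WT rats express the endogenous rat amylin. HIP rats also express human amylin, an amyloid-forming hormone, in the β-cells of the pancreas. AKO rats are amylin knockout rats. WT and HIP rats were 15–16 months old, and the age of the sequenced AKO rats is not given in the sources used here. AKO rats carry names of another kind (KAH or AKO with a number) than WT and HIP rats (RT with a number), so genotype and cohort cannot be told apart. The labels name frontal cortex as the tissue, and the study's methods and results name cerebral cortex and hippocampus.

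The α and β chains of a class II molecule pair in the endoplasmic reticulum around the invariant chain, encoded by Cd74, which fills the groove and steers the complex to endosomes. RT1-Da and RT1-Db1 encode the chains of the RT1-D molecule, and RT1-Ba and RT1-Bb those of RT1-B. In endosomes, cathepsins trim the invariant chain to a short fragment, and the RT1-DM heterodimer of RT1-DMa and RT1-DMb exchanges it for antigen peptide. Ciita, the class II transactivator, is the coactivator that sets the transcription of these genes. In the brain, class II is known chiefly from microglia and from macrophages and dendritic cells at its borders.

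Ciita does not bind DNA itself. It joins RFX proteins at the X box and NF-Y at the Y box, an inverted CCAAT sequence, in class II promoters. RefSeq promoters (GRCr8, 250 bases before to 50 after the start) were matched by symbol for 6 of the 8 genes and are shown around these boxes because they are what the genes share in sequence. RT1-Db2, a close relative of RT1-Db1, is added for contrast. Capitals mark GNNACNGAT, a stretch of the X box, and ATTGG, the Y box, or CCAAT, its reverse, in Cd74.
Cd74 (chr18:56526962-56527036, + strand): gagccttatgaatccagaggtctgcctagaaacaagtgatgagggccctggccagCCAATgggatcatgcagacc
RT1-Da (chr20:4515311-4515385, + strand): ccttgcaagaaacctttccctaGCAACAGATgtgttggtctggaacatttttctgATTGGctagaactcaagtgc
RT1-Db1 (chr20:4560223-4560297, - strand): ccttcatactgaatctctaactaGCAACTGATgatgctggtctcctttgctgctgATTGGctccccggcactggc
RT1-Ba (chr20:4576959-4577033, + strand): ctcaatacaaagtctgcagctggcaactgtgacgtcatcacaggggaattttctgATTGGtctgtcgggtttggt
RT1-Bb (chr20:4604160-4604234, - strand): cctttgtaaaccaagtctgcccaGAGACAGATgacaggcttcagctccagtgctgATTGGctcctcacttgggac
RT1-DMa (chr20:4712380-4712454, - strand): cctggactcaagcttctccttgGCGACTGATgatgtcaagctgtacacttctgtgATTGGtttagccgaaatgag
RT1-Db2 (chr20:4541693-4541767, - strand): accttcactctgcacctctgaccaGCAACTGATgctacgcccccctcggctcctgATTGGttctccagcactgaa

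The letters GNNACNGAT followed by ATTGG on the same strand, with starts at most 40 bases apart, were found in RT1-Da, RT1-Db1, RT1-Bb and RT1-DMa, with 23 or 24 bases between the boxes. They were also found in RT1-Db2 and in RT1-DOb, the β chain of the RT1-DO molecule. Of all 33469 promoters of this length, 100 (0.299%) held the pair on either strand, 7.83% held GNNACNGAT and 37.5% held ATTGG on either strand. The letters were chosen after these promoters had been read, so the counts are a description, and Cd74 and RT1-Ba lack only these letters in this window.

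Values were normalized counts, as the authors deposited them, and they are not scaled by gene length, so levels are compared between rats and not between genes. From the step between low values, 12.9 to 23.6 M reads per rat were estimated. The medians were 19.1 M in WT, 15.7 M in HIP and 16.1 M in AKO rats, and the highest HIP rat had 16.7 M. Depth thus differed between WT and HIP rats and cannot be fully told apart from genotype there. Iapp, the amylin gene, was not among the genes of the table, so the AKO labels were not checked by it. The neocortical neuron markers were present (all 10 in the table), and their mean was far lower in WT rat 10RT43 than in the other 29 rats, 8.21 vs. 10.64 to 11.43 on the log2 scale. Cerebellar genes were highest in that rat, with a mean log2 level of 12.77, followed by HIP rat 12RT23 with 9.69, and were at most 5.33 in the other 28 rats. HIP rat 10RT46 was highest for genes of the pineal gland and the choroid plexus. Its choroid plexus mean was 8.71 on the log2 scale, and the highest AKO rat, 7AKO19, was at 6.71. In bulk tissue, fewer cells of a type and less RNA per cell cannot be told apart.

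**Figure D1:**
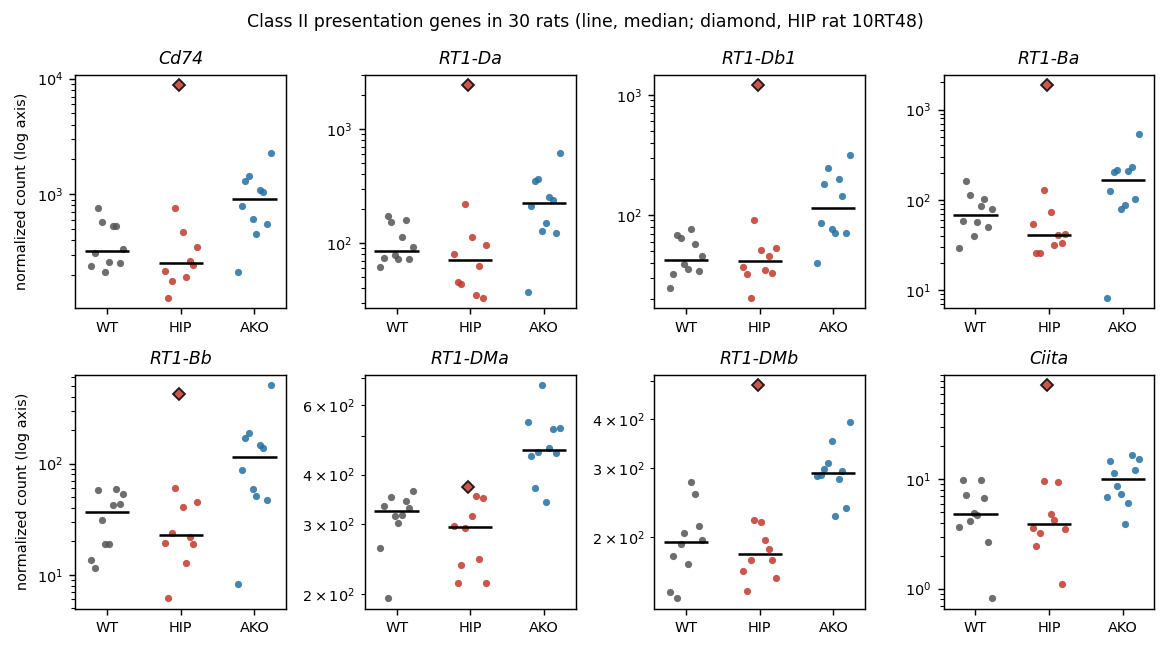
Normalized counts of the 8 class II presentation genes on log axes, with 1 point per rat, 10 rats per group, and the group median as a line. HIP rat 10RT48 (diamond) lies above the other 9 HIP rats for all 8 genes, and for RT1-DMa it lies within the range of AKO rats.

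AKO rats were higher than WT rats in 7 of the 8 genes at an unadjusted p-value under 0.05, and in 1, RT1-DMa, after Benjamini-Hochberg adjustment over all genes tested (limma, two-sided). Among all 17058 genes tested, 892 (5.23%) were higher at the unadjusted threshold and 9 (0.0528%) at the adjusted one. The median log2 fold change of the 8 genes was 0.93, and that of all genes was 0.00. The adjusted count depended on the setting. It was 7 with sample-quality weights (2.88% of all genes higher), and 0 with a pseudocount of 0.1 (0.0293%) or with estimated reads as a covariate (0.0528%).

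The genes of the peptide-exchange molecule had the smallest p-values. RT1-DMa had 195, 323 and 363 normalized counts in the lowest, median and highest WT rat and 340, 461 and 672 in AKO rats, so that 9 of 10 AKO rats were above every WT rat. Its log2 fold change was 0.62 (SE 0.12, p = 4.11e-05, adjusted p = 0.0438). RT1-DMb had 140, 195 and 276 in WT rats and 226, 292 and 394 in AKO rats, with 8 of 10 AKO rats above every WT rat. Its log2 fold change was 0.60 (SE 0.12, p = 8.76e-05, adjusted p = 0.0623). The lowest WT rat for both genes was 10RT43. When each of the 20 rats was left out in turn, the adjusted p-value of RT1-DMa lay between 0.0162 and 0.109 and was under 0.05 in 5 of the 20 fits, those without 10RT43, 10RT57, 4KAH27, 6AKO35 or 6KAH99, while its log2 fold change stayed between 0.55 and 0.67.

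The invariant chain and the chains of the RT1-D molecule had larger differences and wider spread. Cd74 had 214, 323 and 764 normalized counts in the lowest, median and highest WT rat and 214, 918 and 2294 in AKO rats. The groups overlapped, with 6 of 10 AKO rats above every WT rat and AKO rat 4KAH27 at the level of the lowest WT rat. The log2 fold change of Cd74 was 1.14 (SE 0.34, p = 0.00298, adjusted p = 0.263). RT1-Db1 had 24.7, 42.6 and 76.0 in WT rats and 39.8, 114 and 317 in AKO rats, and 7 of 10 AKO rats were above every WT rat (log2 fold change 1.37, SE 0.32, p = 0.000366, adjusted p = 0.119). RT1-Da had 61.3, 85.5 and 172 in WT rats and 37.03, 225 and 621 in AKO rats (log2 fold change 0.9998, SE 0.36, p = 0.0118, adjusted p = 0.39). Here 6 of 10 AKO rats were above every WT rat, and 4KAH27 was below every WT rat.

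Of the chains of the RT1-B molecule, the β chain passed the unadjusted test and the α chain did not. RT1-Bb had 11.6, 36.8 and 59.1 normalized counts in the lowest, median and highest WT rat and 8.23, 114 and 505 in AKO rats (log2 fold change 1.56, SE 0.52, p = 0.00682, adjusted p = 0.347). RT1-Ba had 29.3, 68.7 and 163 in WT rats and 8.23, 165 and 539 in AKO rats (log2 fold change 0.84, SE 0.50, p = 0.109, adjusted p = 0.601). For both genes 9 of 10 AKO rats were above the WT median and 4KAH27 was the lowest of the AKO rats, at 6 estimated reads. Without 4KAH27, RT1-Ba passed as well, with a log2 fold change of 1.26 (p = 0.00146). In that fit all 8 genes were higher at the unadjusted threshold (all genes, 5.91%). The highest WT rat for RT1-Ba was 10RT43, and the second highest was at 112.

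Ciita was near the limit of detection, with 1 to 12 estimated reads in WT rats and 4 to 15 in AKO rats. Its normalized counts were 0.82, 4.83 and 9.93 in the lowest, median and highest WT rat and 3.90, 10.1 and 16.9 in AKO rats. The groups overlapped, with 5 of 10 AKO rats above every WT rat (log2 fold change 0.86, SE 0.31, p = 0.0118, adjusted p = 0.39).

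**Figure D2:**
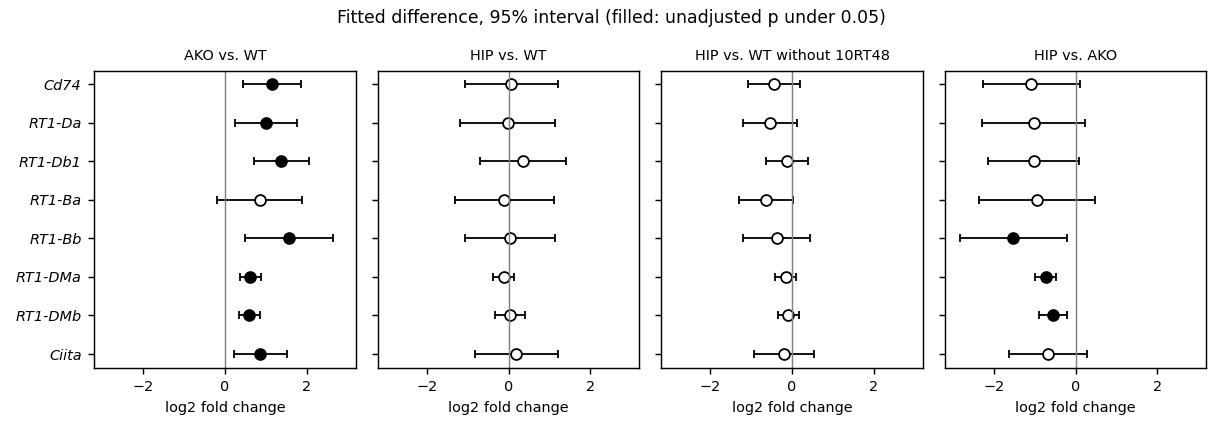
Fitted log2 fold changes of the 8 genes with 95% intervals in AKO vs. WT, HIP vs. WT with and without 10RT48, and HIP vs. AKO rats. Filled points, with an unadjusted p-value under 0.05, number 7, 0, 0 and 3 in that order, and the 2 RT1-DM genes have the narrowest intervals in each panel.

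The AKO group holds 4 rats with KAH in their names and 6 with AKO, and the labels do not say what the names stand for. Cd74 was 214, 530 and 792 normalized counts in the lowest, median and highest KAH-named rat and 551, 1187 and 2294 in the AKO-named rats. Against WT rats, the KAH-named rats were higher for 2 of the 8 genes at the unadjusted threshold, RT1-DMa and RT1-DMb (all genes, 5.28%), and the AKO-named rats for all 8 (all genes, 4.36%). After adjustment, these counts were 0 (0 of all genes) and 5 (0.258% of all genes). The median log2 fold changes of the 8 genes were 0.45 and 1.61. RT1-DMa had log2 fold changes of 0.66 and 0.59, while RT1-Bb was at 0.36 and 2.36. The difference between the name types was not tested.

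HIP rat 10RT48 had the highest level of the 30 rats for 6 of the 8 genes. Cd74 was at 8776 normalized counts in that rat, 35.9-fold the median of the other 9 HIP rats (245), and the next rat was AKO rat 7AKO42 at 2294. RT1-Da was at 2423 (38.7-fold the median of the other HIP rats), RT1-Db1 at 1201 (32.3-fold), RT1-Ba at 1861 (45.7-fold) and Ciita at 72.3 (20.1-fold). RT1-Bb was at 424 (19.3-fold), below the 505 of 7AKO42. The peptide-exchange genes stood out less. RT1-DMb was at 488 (2.78-fold) and still the highest of all rats, while RT1-DMa was at 372 (1.27-fold), below 8 AKO rats. These values are the ones that set the rat apart and carry no test.

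The remaining class II chains of the table did not all follow in 10RT48. RT1-DOa, the α chain of RT1-DO, which restrains RT1-DM, was at 28.3 normalized counts, with at most 6.79 in any other rat. RT1-DOb was at 3.14, below 18 rats, and RT1-Db2 was at 297, below 23 rats. RT1-Db1 and RT1-Db2 are near copies, so reads may be shared between them, and the values of both are uncertain to that extent.

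**Figure D3:**
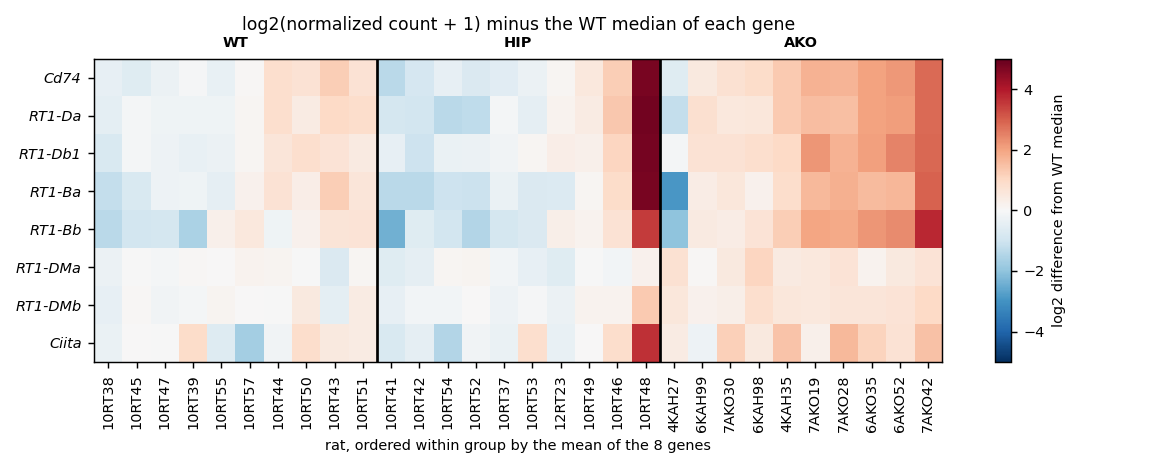
Difference of each rat from the WT median of each gene on the log2(normalized count + 1) scale, with rats ordered within each group by the mean of the 8 genes. HIP rat 10RT48 is the darkest column, 7AKO42 the highest AKO rat, and 4KAH27 is low for RT1-Ba and RT1-Bb but not for RT1-DMa and RT1-DMb.

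HIP vs. WT rats showed no gene of the 8 at an unadjusted p-value under 0.05, either with 10RT48 (2.57% of 17085 genes passed) or without it (2.27% of 17082 genes passed; limma, two-sided). Cd74 had 127, 255 and 8776 normalized counts in the lowest, median and highest HIP rat, and 765 in the highest without 10RT48, against 214, 323 and 764 in WT rats. Its log2 fold change was 0.06 (SE 0.55, p = 0.909) with that rat and -0.44 (SE 0.30, p = 0.164) without it. RT1-Ba had 25.8, 41.3 and 1861 in HIP rats, and 130 in the highest without 10RT48 (log2 fold change -0.10, SE 0.58, p = 0.862, with it and -0.64, SE 0.32, p = 0.0601, without it). The groups overlapped for both genes. For each, the highest HIP rat after 10RT48 was 10RT46, and the highest WT rat was 10RT43. RT1-DMa, the gene least raised in 10RT48, had 212, 295 and 372 in HIP rats, with log2 fold changes of -0.12 (SE 0.12, p = 0.358) and -0.16 (SE 0.12, p = 0.208).

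Without 10RT48, all 8 fitted log2 fold changes of HIP vs. WT rats lay below 0, from -0.64 for RT1-Ba to -0.10 for RT1-DMb, and their median was -0.29. With estimated reads as a covariate, RT1-DMa and RT1-DMb lay above 0, at 0.11 and 0.087. In that fit 553 of all 17082 genes, and 0 of the 8, passed adjustment, against 0 genes without the covariate. The 95% intervals were wide for the chains, ±0.67 for RT1-Ba and ±0.65 for RT1-Da, and narrower for RT1-DMa and RT1-DMb, ±0.26 and ±0.25. Leaving out WT rat 10RT43 and HIP rat 10RT46 as well gave 3 genes that were lower in HIP rats at the unadjusted threshold (all genes, 2.94%), namely RT1-Da (log2 fold change -0.66, p = 0.0183), RT1-Ba (-0.70, p = 0.0145) and RT1-DMa (-0.24, p = 0.0349). Their adjusted p-values were 0.973 to 0.978. Without 12RT23 as well, 3 genes were lower (all genes, 2.4%), now RT1-Da, RT1-Ba and Cd74, while RT1-DMa had p = 0.0824. Leaving out 10RT48 and 10RT46 gave 3 genes (all genes lower, 2.78%), and leaving out 10RT48 and 1 of 10RT38, 10RT43, 10RT45 or 10RT49 gave 1 (1.35% to 1.54%).

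HIP rats were lower than AKO rats for 3 of the 8 genes at an unadjusted p-value under 0.05 (all genes, 6.9%), and for 1, RT1-DMa, after adjustment (all genes, 0.0995%). This comparison shares its rats with those above. RT1-DMa had a log2 fold change of -0.73 (SE 0.13, p = 6.69e-06, adjusted p = 0.00953), and 8 of 10 AKO rats were above every HIP rat. Its adjusted p-value stayed between 0.00354 and 0.0261 when each rat was left out. The other 2 genes were RT1-DMb (-0.55, SE 0.16, p = 0.00252) and RT1-Bb (-1.52, SE 0.63, p = 0.025). Without 10RT48, all 8 genes were lower in HIP rats at the unadjusted threshold (all genes, 6.36%), and RT1-DMa and RT1-DMb after adjustment (all genes, 0.164%). Leaving out 4KAH27 instead gave 7 genes (all genes lower, 7.46%). Without 10RT48, the log2 fold change of Cd74 moved from -1.08 (p = 0.0706) to -1.58 (p = 0.000297).

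Across the 30 rats, Cd74 and the 4 chains of RT1-D and RT1-B varied together, with Spearman's rho from 0.89 to 0.96 over the 10 pairs. Ciita had rho from 0.55 to 0.72 with these genes, RT1-DMb from 0.63 to 0.79, and RT1-DMa from 0.42 to 0.56. RT1-Db2, with a promoter that holds the same 2 boxes, had rho from 0.14 to 0.22. Without 10RT43, 10RT46 and 10RT48, rho among Cd74 and the 4 chains was 0.87 to 0.95. These correlations describe libraries that share depth and tissue makeup, and the 3 groups are pooled in them.

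The ratio of β to α chain within a rat was examined after the data were seen, in 9 two-sided permutation tests on the log2 ratio, 3 per chain pair. RT1-Bb/RT1-Ba was 0.20, 0.47 and 0.87 in the lowest, median and highest WT rat, 0.23, 0.50 and 1.08 in HIP rats and 0.46, 0.73 and 1.0 in AKO rats. The geometric mean was 0.73 in AKO rats and 0.43 in WT rats (permutation p = 0.00432, adjusted over the 9 tests 0.0389). RT1-Db1/RT1-Da had geometric means of 0.46 in WT, 0.60 in HIP and 0.60 in AKO rats, and neither difference from WT passed adjustment (HIP, permutation p = 0.0386, adjusted 0.0869, and unadjusted permutation p = 0.036 without 10RT48; AKO, permutation p = 0.0145, adjusted 0.0651). RT1-DMb/RT1-DMa had geometric means of 0.63 in WT, 0.71 in HIP and 0.62 in AKO rats, with adjusted permutation p-values from 0.398 to 0.967, and without 10RT48 the geometric mean of HIP rats was 0.66. In HIP vs. AKO rats, RT1-Bb/RT1-Ba had a permutation p of 0.0297 (adjusted 0.0869), and of 0.0563 without 10RT48. HIP rat 10RT48 had the lowest RT1-Bb/RT1-Ba ratio of the HIP rats, 0.23, and the highest RT1-DMb/RT1-DMa ratio of all rats, 1.31.

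**Figure D4:**
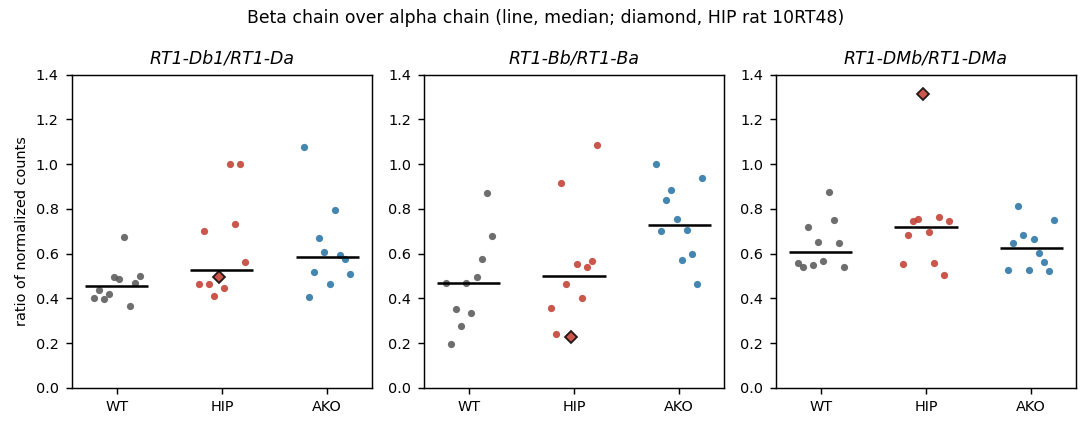
Ratio of β to α chain normalized counts in each rat for RT1-D, RT1-B and RT1-DM, with the group median as a line and HIP rat 10RT48 as a diamond. The median RT1-Bb/RT1-Ba ratio is 0.73 in AKO rats and 0.47 in WT rats, and the 3 medians of RT1-DMb/RT1-DMa lie between 0.61 and 0.72.

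Other genes of the route were read from lists drawn up by function, with earlier results of these data known. For 17 tested regulators of class II transcription, the median log2 fold change in AKO vs. WT rats was -0.01. At the unadjusted threshold 3 were higher and 0 lower (all genes, 5.23% and 4.12%). These were the myeloid factor Spi1, at 84.8 ± 21.8 vs. 56.2 ± 11.6 normalized counts (SD, n = 10 per group, p = 0.00249), the interferon-responsive factor Irf8 (log2 fold change 0.53, p = 0.00295) and the interferon-γ receptor chain Ifngr1 (0.31, p = 0.0181). None of the 3 had an adjusted p-value under 0.05. In HIP vs. WT rats, 0 of the 17 passed at the unadjusted threshold, with or without 10RT48 (all genes, 2.57% and 2.27%).

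Of 13 tested genes of peptide processing and loading, 3 were higher and 1 lower in AKO vs. WT rats at the unadjusted threshold (all genes, 5.23% and 4.12%). Ctss, cathepsin S, which makes the last cuts in the invariant chain, was at 4339 ± 803 vs. 2969 ± 502 normalized counts (SD, n = 10 per group), with p = 0.0002 and adjusted p = 0.0853 for a log2 fold change of 0.55 (SE 0.12). Ctsc, cathepsin C, and Cst3, the cathepsin inhibitor cystatin C, were the other higher genes, and Sppl2a, the protease that clears the invariant chain stub from membranes, was the lower one (log2 fold change -0.49, p = 0.0237). In HIP vs. WT rats 0 of the 13 passed (all genes, 2.57%). Of 8 tested genes of class II turnover and costimulation, 2 were higher in AKO vs. WT rats (all genes, 5.23%). They were Icam1 (0.52, p = 0.00724) and the CD28 ligand Cd86 (0.60, p = 0.0179). In HIP vs. WT rats 1 was lower (all genes, 1.46%), the class II receptor Lag3 (-0.82, p = 0.0476). Without 10RT48, Lag3 was again the 1 lower gene (-0.92, p = 0.0319), and 1.28% of all genes were lower. Of 3 tested further class II chains, 1, RT1-DOb, was higher in AKO vs. WT rats at the unadjusted threshold (all genes, 5.23%). RT1-DOb was at 9.52 ± 5.67 in AKO rats vs. 3.599 ± 3.66 in WT rats (SD, n = 10 per group, log2 fold change 1.39, p = 0.0054, adjusted p = 0.32).

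In the RefSeq gene order of GRCr8, 16 genes run from RT1-Da to RT1-DOa, 14 of them in the table, and 6 of these are members. Of the other 8, 2 were higher in AKO vs. WT rats at the unadjusted threshold and 0 lower (all genes, 5.23% and 4.12%). The 2 were RT1-DOb and Tap1, a subunit of the class I peptide transporter, with a log2 fold change of 0.64 (p = 0.044). Tap2, Psmb8, Psmb9 and Brd2, between the same class II genes, had log2 fold changes from -0.18 to 0.23 with unadjusted p-values of at least 0.129. In 10RT48, Psmb8 and Psmb9, subunits of the immunoproteasome, were the highest of the 30 rats, at 161 and 121 normalized counts, and the bromodomain gene Brd2 was at 3029, below its median of 3367.

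Class I presentation serves CD8+ T cells. For 20 tested class I genes, the median log2 fold change in AKO vs. WT rats was 0.07. At the unadjusted threshold 3 were higher and 0 lower (all genes, 5.23% and 4.12%). They were the class I gene RT1-S3 (0.49, p = 0.0169), the loading factor Tapbp (0.32, p = 0.0385) and Tap1. In HIP vs. WT rats 0 of the 20 passed (all genes, 2.57%), with 1 lower once 10RT48 was left out (all genes, 1.28%). In HIP vs. AKO rats 4 were lower (all genes, 6.9%), or 5 without 10RT48 (all genes, 6.36%). In 10RT48, 4 of the 20 were the highest of the 30 rats.

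Cell markers were read beside these genes. For 15 tested microglial markers, the median log2 fold change in AKO vs. WT rats was 0.31. At the unadjusted threshold 9 were higher and 0 lower (all genes, 5.23% and 4.12%). The smallest p-values were those of Itgam, at 309.5 ± 108 vs. 164 ± 36.9 normalized counts (SD, n = 10 per group, p = 8.45e-05, adjusted p = 0.0623), the lysosomal protein Cd68 (log2 fold change 0.77, p = 0.000115), and the complement subunits C1qa (0.56, p = 0.000162) and C1qc (0.68, p = 0.00025). The homeostatic markers P2ry12 and Tmem119 had AKO medians of 363 and 253 and WT medians of 349 and 404. The mean of the 15 markers was 7.58, 8.29 and 8.63 on the log2 scale in the lowest, median and highest WT rat, 7.83, 8.20 and 9.58 in HIP rats and 8.15, 8.76 and 8.88 in AKO rats. HIP rat 10RT48 set the highest value, and the other HIP rats reached 8.48. Of the 15 markers, 10 were highest of all 30 rats in 10RT48, with Cd68 at 260 against at most 85.4 elsewhere. In HIP vs. AKO rats, 7 of the 15 were lower and 1, Tmem119, was higher (all genes, 6.9% lower and 5.85% higher). Without 10RT48, 9 were lower and 0 higher (all genes, 6.36% and 4.59%). The part of microglial RNA in the class II differences was not tested.

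Of the 9 tested monocyte and neutrophil markers, 6 were higher and 0 lower in AKO vs. WT rats (all genes, 5.23% and 4.12%), with a median log2 fold change of 0.61. The mean log2 level of these markers was 3.88 to 4.44 in WT rats, 3.82 to 6.05 in HIP rats, highest in 10RT48, and 4.57 to 6.77 in AKO rats, highest in 4KAH27. That of 9 border-associated macrophage markers was 5.01 to 5.82, 4.44 to 5.57 and 5.28 to 6.13, and that of 4 B cell markers was 1.84 to 3.63, 2.07 to 4.89 and 2.95 to 5.15, in the same order of groups. Of the border-associated macrophage markers, 3 were higher in AKO vs. WT rats (all genes, 5.23%), among them Siglec1 (log2 fold change 0.98, p = 0.00341). In 10RT48, 1 of these 9 markers, Folr2, was the highest of the 30 rats and 4 were the highest of the HIP rats, while Cd163 and Pf4 were below 19 and 17 rats. Of the 9 monocyte and neutrophil markers, 3 were the highest of the 30 rats in 10RT48, Plac8, Fcnb and Csf3r, with Plac8 at 336 and at most 57.6 in any other rat, while Lyz2 and Vcan were below 18 and 22 rats. Of the B cell markers, 2 were higher in AKO vs. WT rats (all genes, 5.23%). Cd22, which microglia also express, was at 20.5 ± 13.4 vs. 4.76 ± 3.59 (SD, n = 10 per group, p = 4.66e-05, adjusted p = 0.0467). In 10RT48, Cd22 was at 38.7, exceeded by 1 rat, Cd79a, a B cell receptor subunit, was at 3.14, exceeded by 6 rats, Ighm by 8 and Jchain by 16. Of 11 listed dendritic cell markers 7 were tested, and of 12 listed T and NK cell markers 5. Of these, 0 passed in AKO vs. WT rats (all genes, 9.34%). Their WT medians ran from 4.09 (Clec9a) to 3800 (Fscn1) and from 2.09 (Cd5) to 27.8 (Lck). With listed markers absent and others at a few counts, these results cannot decide whether those cells differed. Of the tested dendritic cell and T cell markers, 0 were the highest of the 30 rats in 10RT48. Of the T cell markers there, Cd5 and Lck were exceeded by 2 rats each and Cd3e, Cd8a and Cd2 by 16, 16 and 19. The part of these cells in the class II differences was not tested.

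**Figure D5:**
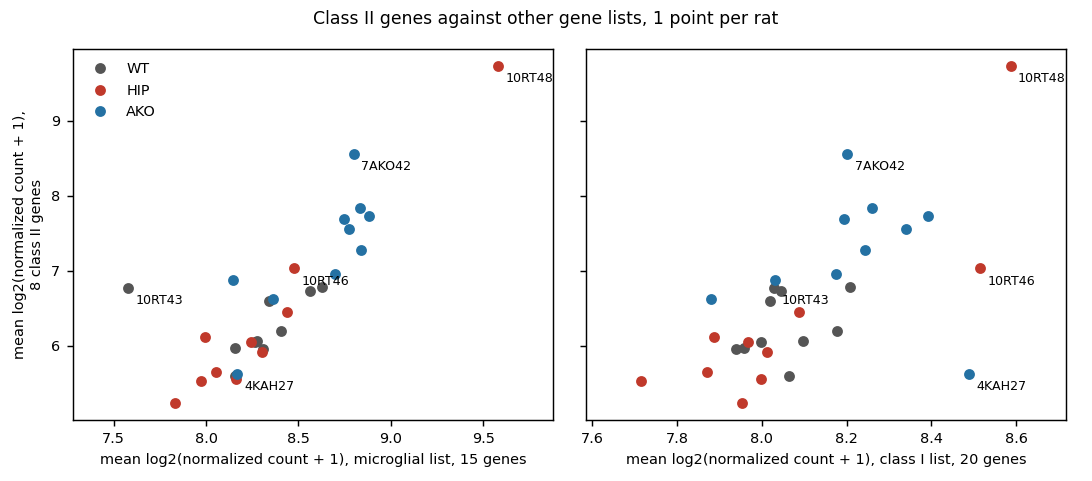
Mean log2(normalized count + 1) of the 8 class II genes against that of 15 microglial markers (left) and 20 class I presentation genes (right), with 1 point per rat. HIP rat 10RT48 lies at the top right of both panels, at 9.73 for the class II genes, while 4KAH27 combines a low class II mean of 5.62 with a high class I mean of 8.49.

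The mean of the 8 genes on the log2 scale was 5.60 to 6.78 in WT rats, 5.24 to 9.73 in HIP rats, with 7.03 as the highest without 10RT48, and 5.62 to 8.56 in AKO rats. Across the 30 rats, this mean had a Spearman's rho of 0.80 with the microglial mean, 0.69 with the class I mean, 0.65 with the border macrophage mean, -0.53 with the neocortical neuron mean and 0.15 with the estimated reads. With the other cell lists, rho was 0.57 for B cells, 0.56 for choroid plexus, 0.54 for monocytes and neutrophils, 0.54 for activated microglia and 0.53 for meningeal fibroblasts. It was 0.39 for T and NK cells, 0.25 for dendritic cells, 0.22 for the pineal gland, 0.20 for red blood cells and 0.18 for the cerebellum. These are descriptions over 30 rats, in which the groups are pooled and lists can share cells.

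Among 15526 genes with a mean of at least 10 normalized counts, the genes with the most similar pattern were named by Spearman's rho with the mean of the 8 genes over 30 rats. They were Icoslg (0.86), Dpp7 (0.86), Myo1f (0.85), Cd68 (0.84), C4a (0.83), Hexa (0.83), Ucp2 (0.82), Cmklr1 (0.82), Hps1 (0.82) and Pld4 (0.80). Icoslg encodes a ligand that costimulates T cells, Dpp7 and Hexa encode lysosomal enzymes, and C4a encodes complement component 4. C4a had 614 normalized counts in the median WT rat and 1028 in the median AKO rat, with 5547 in 10RT48 and at most 1932 in any other rat. Icoslg did not share that height, at 384 in 10RT48 and 472 in the highest rat. Over 27 rats, without 10RT43, 10RT46 and 10RT48, 5 of the 10 genes recurred, Dpp7 (0.90), Icoslg (0.87), Hps1 (0.86), Myo1f (0.85) and Ucp2 (0.85).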

How the data were processed

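Per the study's methods and the submitters' processing notes, cortical RNA was sequenced (frontal cortex per the labels, cerebral cortex per the methods), aligned to rn7 in Partek Flow 10.0.22.0228 (STAR 2.7.8a and Bowtie2 are named), and counted against Ensembl genes. The authors normalized the counts with DESeq2 and deposited the result, a normalized count signal that is not whole. RT1 chains are highly polymorphic, and how alleles outside the reference mapped was not tested.

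In each rat, 80.8% to 84.5% of values below 100 were whole multiples (tolerance 0.02) of 1 step, taken as 1 read, so whole reads were not recovered and no count model was fitted. Log2(normalized count + 1) was compared by limma 3.58.1 (R 4.3.3, trend, two-sided), with only the groups compared and genes with a mean of at least 1. Benjamini-Hochberg adjustment covered all genes tested. The scale understates changes of low genes. Ratios were compared by permutation (scipy 1.17.1, 100000 resamples). The fit was tested on simulated data.

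The labels do not say whether rats shared litters. The members and lists were chosen with earlier results of these data known. By rule, all 8 members, at most 4 genes per list and comparison (the smallest p-values), the 10 genes most like the members and the genes between class II genes were named. P2ry12 and Tmem119, and single markers given for 10RT48, were named after their values were seen. Alternatives were other pseudocounts, filters, scalings, covariates and sets of rats.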

Additional observations from a re-analysis of the deposited data

Results flagged for a closer look

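Within each group of 10 rats and for each of the 8 genes, the highest or lowest rat was set against the other 9 by Dixon's ratio on the log2 scale. A rat stood apart in 9 of the 24 groups, and 7 of these entries are 10RT48. Chance flags about 1 in 20 groups, but the count of 9 cannot be read against it, since 10RT48 was known to stand apart when the genes were chosen and the genes vary together. The entries are a description.

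HIP rat 10RT48 stood apart for Cd74 (8776 normalized counts), RT1-Da (2423), RT1-Db1 (1201), RT1-Ba (1861), RT1-Bb (424), RT1-DMb (488) and Ciita (72.3). It did not stand apart for RT1-DMa. AKO rat 4KAH27 stood apart as the lowest AKO rat for RT1-Ba (8.23 normalized counts), and WT rat 10RT43 as the lowest WT rat for RT1-DMa (195).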

How the results depend on the processing

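No paired analysis was possible because the labels give the rats no replicate numbers that groups share. Of the values recomputed under settings other than leaving out single rats, 430 stayed the same. A fold change or ratio stayed if it kept its direction and its side of the threshold. A count of members stayed if it changed by at most 1.5 times. Of the rest, 35 newly passed the threshold, 10 no longer passed it and 23 turned direction, while 12 counts moved by more than 1.5 times or from 0. The causes were not tested.

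Counts of members past the unadjusted threshold changed as follows, with the share of all genes past it in parentheses. In HIP vs. WT rats the count was 3 without 10RT43, 10RT46 and 10RT48 (4.94%), and 3 without 12RT23 as well (3.94%, chosen after seeing the data), against 0 (2.57%). With 10RT48 alone left out, it was 0 (2.27%), and 1 after quantile normalization (2.46%) or with estimated reads as a covariate (23.2%). In AKO vs. WT rats it was 2 with the KAH-named rats only (10.5%), against 7 (9.34%). In HIP vs. AKO rats it was 3 (12.7%), and 5 in a fit of all 30 rats (12.3%), 7 with sample-quality weights (25.1%), 8 without the 3 or the 4 rats (15.5% and 12.7%) and 7 with the AKO-named rats only (11.2%). Leaving out each rat in turn gave 0 in HIP vs. WT (1.81% to 4.58%) and 7 to 8 in AKO vs. WT rats (7.68% to 11.6%). It gave 2 to 8 in HIP vs. AKO rats (9.69% to 17.6%) and 0 to 3 in HIP vs. WT rats without 10RT48 (1.74% to 4.27%).

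Directions turned chiefly in HIP vs. WT rats, where no gene passed. Without the 3 rats the log2 fold changes were -0.51 for Cd74, -0.21 for RT1-Db1, -0.45 for RT1-Bb, -0.18 for RT1-DMb and -0.27 for Ciita, and without the 4 rats -0.59, -0.28, -0.61, -0.16 and -0.27 in the same order. With estimated reads as a covariate Cd74 was -0.072 and RT1-DMa 0.16 (without 10RT48, RT1-DMa 0.11 and RT1-DMb 0.087). RT1-Da was 0.0024 with a pseudocount of 5, 0.061 with sample-quality weights and 0.038 with library number as a covariate, and RT1-Ba was 0.068 and 0.011 under the latter 2. With single rats left out, the ranges were -0.44 to 0.24 for Cd74, -0.54 to 0.15 for RT1-Da, -0.13 to 0.51 for RT1-Db1, -0.64 to 0.040 for RT1-Ba, -0.38 to 0.27 for RT1-Bb, -0.10 to 0.10 for RT1-DMb and -0.19 to 0.38 for Ciita. The lower end in each case was the fit without 10RT48.

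With the KAH-named rats only, RT1-Ba was -0.38 in AKO vs. WT and 0.28 in HIP vs. AKO rats. The log2 ratio RT1-Db1/RT1-Da in HIP vs. AKO rats was 0.093 without the 3 rats and -0.090 to 0.086 with single rats left out. The log2 ratio RT1-DMb/RT1-DMa in AKO vs. WT rats was 0.0013 and -0.061 to 0.033.

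At 1 to 15 estimated reads in WT and AKO rats, Ciita was limited by depth, and a filter at a mean of 10 normalized counts removed it from AKO vs. WT rats.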
